A study of Mus musculus with 6 samples.

Results

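Lysosomal genes other than the cathepsins were examined in mouse blood monocytes with and without thrombocytopenia. They comprised 43 genes listed by name: hydrolases and their helper proteins, lysosomal membrane proteins, lipid transfer proteins and the MiT/TFE transcription factors. All 43 symbols were found among the 56832 gene names of the files, and all 43 passed the filter on low counts that 12488 genes passed. The lowest count of any of them in any library was 83, so none passed through 1 group alone. The study had 2 groups of 3 libraries of polyadenylated RNA from cells labelled as monocytes of peripheral blood. Mice of the thrombocytopenic group were PF4cre-iDTR: Cre recombinase driven by the promoter of Pf4, the platelet factor 4 gene, is combined with a Cre-dependent receptor for diphtheria toxin. The control group was wild type (WT). Diphtheria toxin was the listed treatment of both groups, so genotype and platelet state cannot be told apart. Strain, age, toxin dose and time are not given in the labels used here.

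Library totals were 24842319 to 37552029 counts. Separate animals behind the libraries are not stated in the labels; the p-values therefore cover the spread among libraries alone, and this may be technical. All 16 monocyte markers examined were detected, among them Csf1r, Lyz2, Ccr2 and Ly6c2. Macrophage genes were abundant too: their summed level was 6651 to 6806 CPM (counts scaled to a common library total) in the thrombocytopenic and 7474 to 7548 CPM in the control libraries. RNA of Pf4 itself was at 1071 to 1133 CPM against 910 to 953 CPM. Cre activity in the profiled cells themselves was not tested.

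The lysosome is the acidic compartment in which cells break down material taken up by phagocytosis and endocytosis or delivered by autophagy. Its soluble hydrolases reach it through mannose 6-phosphate receptors, a proton pump keeps it acidic, and heavily glycosylated membrane proteins line it. Transcription factors of the MiT/TFE family switch on many lysosomal genes through a palindromic promoter element known as CLEAR, and are held in the cytoplasm by mTORC1 when nutrients are plentiful. Monocytes enlarge this compartment as they become macrophages.

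Most lysosomal genes carried less RNA in the thrombocytopenic libraries. With an adjusted p under 0.05 in edgeR's quasi-likelihood test, 30 of 43 were lower, 4 were higher and 9 did not pass, whereas over all genes tested 22.7% were lower and 22.4% higher (45.1% in either direction). The median log2 fold change was -0.18 for the 43 genes and 0.00 over all genes. The changes were small: of the 30 lower genes, 13 differed by under 1.2-fold, 13 by 1.2 to 1.5-fold and 4 by more. Those 4 were Gla, Naglu, Sgsh and Acp5; over all genes 6.83% were lower and 2.8% higher by at least 1.5-fold (9.63% in either direction). The 4 higher genes were Asah1, Ids, Tfe3 and Lipa, all under 1.2-fold. The 3 thrombocytopenic libraries lay wholly below the 3 control libraries for 32 of the 43 genes and wholly above them for 4, against 26% and 25.2% of all genes (51.3% in either direction). In bulk RNA, fewer cells of a type and less RNA per cell cannot be told apart.

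**Figure D1:**
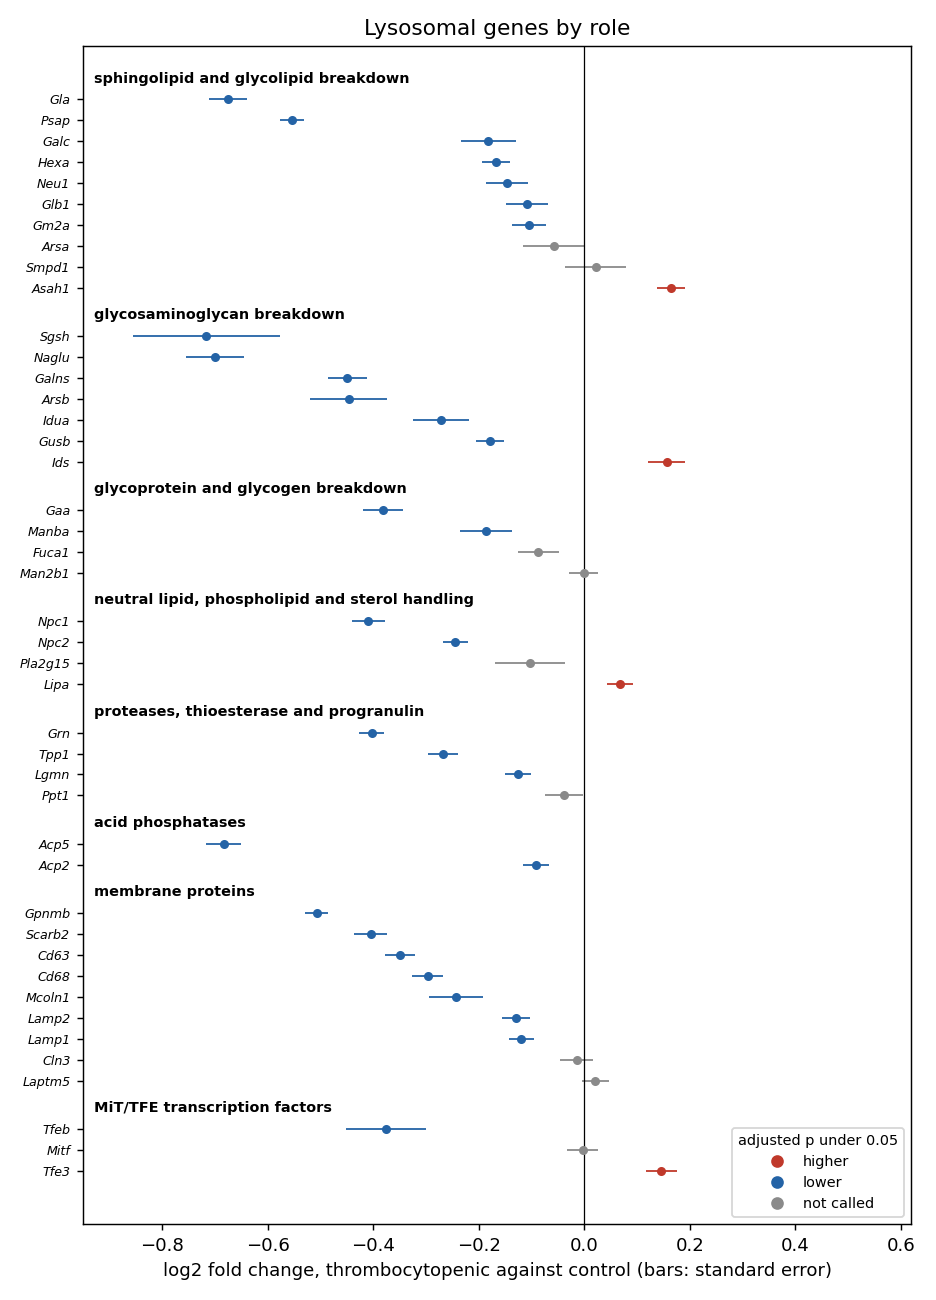
Log2 fold change (thrombocytopenic against control, horizontal axis) of each of the 43 lysosomal genes, grouped by role; bars are standard errors and colours show the call at an adjusted p under 0.05. Points of 30 genes lie to the left of 0 and are called lower, and 4 called genes lie to the right.

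**Figure D2:**
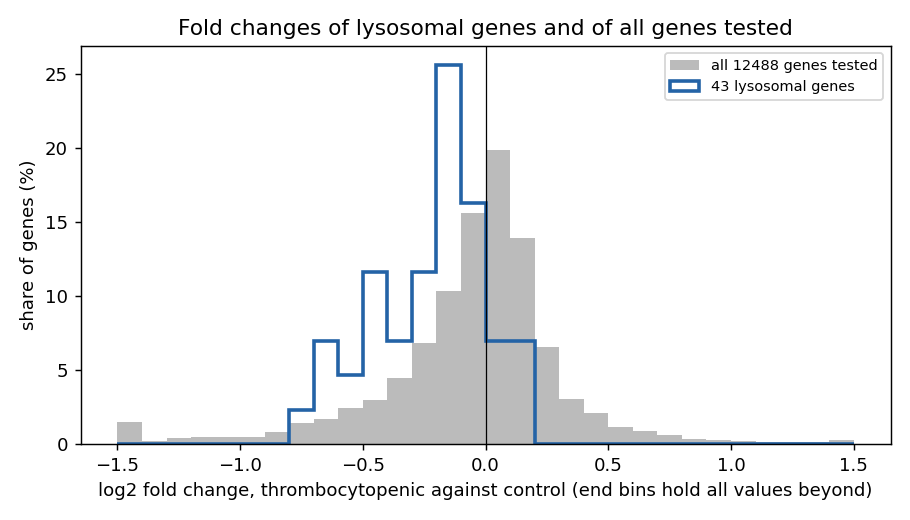
Share of genes (vertical axis, percent) by log2 fold change (horizontal axis, bins of 0.1) for the 43 lysosomal genes (blue line) and all 12488 genes tested (grey). The lysosomal genes are centred at a median of -0.18 and range from -0.72 to 0.16.

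Taken as a share of the library, the 43 genes summed to 18020 to 18420 CPM in the thrombocytopenic and 22880 to 22980 CPM in the control libraries. In TMM-scaled CPM the mean sum was 18290 against 22890 CPM. It was lower by 20.1% on that scale, and 68.6% of that difference lay in Psap and Gpnmb. Without these 2 genes the sum of the other 41, scaled in the same way, was lower by 11.4%. Lysosomal genes were also well expressed: 39 of 43 were above the median level of all genes tested. Among the 9465 tested genes at least as abundant as the lowest of the 43, 24.4% were lower and 27.5% higher, against 30 and 4 of the 43. At or above the median level of the 43 lay 1574 tested genes, of which 29.3% were lower and 44.3% higher (73.6% in either direction). Of the 22 lysosomal genes at that level 15 were lower and 3 higher. The share called thus rose with abundance over all genes too.

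**Figure D3:**
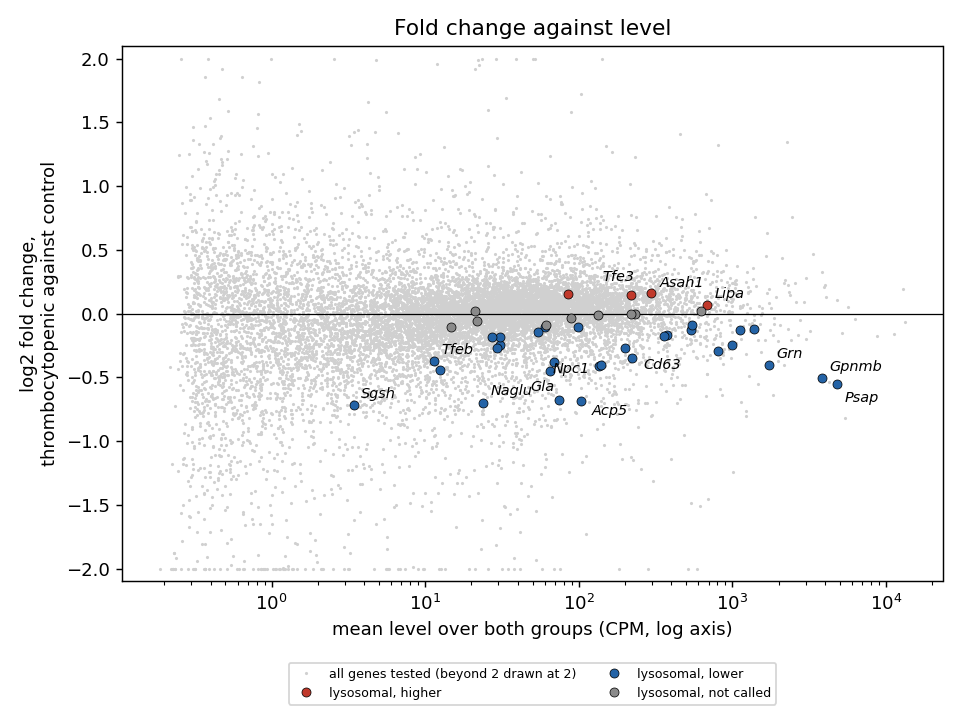
Log2 fold change (vertical axis) against the mean level over both groups (CPM, log axis) for all genes tested (grey) and the 43 lysosomal genes (coloured by call). Lower lysosomal genes are found from Sgsh, near 3 CPM, to Psap, near 4797 CPM.

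Because MiT/TFE factors bind CLEAR elements, the RefSeq promoters of the genes (GRCm38.p6, 250 bases before to 50 after each start) were searched for the full palindrome GTCACGTGAC, for its inner letters TCACGTGA and for the core CACGTG, each of which reads the same on both strands and contains the next. Of the 43 genes 40 had an entry; Npc1, Asah1 and Galns had none. The core was found in 10 of 40 genes (25%) and in 11.9% of the 9441 tested genes with an entry. Counted by promoter, it was in 10 of the 50 promoters of the 40 genes (20%) and in 7.15% of all 32851 promoters. The inner letters were in Gla, Mcoln1 and Cln3 (7.5% of 40 genes and 2.32% of tested genes, or 6% of 50 promoters and 0.974% of all promoters). The full palindrome was in Cln3 alone (2.5% and 0.869% by gene, 2% and 0.326% by promoter). The 10 genes with the core were Lamp1, Gaa, Gla, Glb1, Naglu, Lgmn, Mcoln1, Arsa, Sgsh and Cln3. Their RNA was lower in 8, and Arsa and Cln3 did not pass the test. Of the 30 genes without the core, 20 were lower and 3 higher, and the medians were near each other (log2 fold change -0.18 with the core and -0.17 without). Over all tested genes with an entry, 25.1% of those with the core and 23.3% of those without were lower. A match describes letters in this window and not a bound site.

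The stretches below hold the clusters and longest matches, and 2 of the genes with the largest fold changes, Naglu and Sgsh. Each is upstream of the start, 5′ to 3′ on the gene's strand, with the core and any palindromic extension in capitals. Lamp1 (chr8:13159080-13159160, plus strand) has 4 cores within 81 bases, Gla (chrX:134601173-134601253, minus strand) and Mcoln1 (chr8:3500428-3500500, plus strand) have 2 each, and Cln3 (chr7:126583330-126583405, minus strand) has 2, of which 1 is the full palindrome. Naglu (chr11:101070001-101070046, plus strand) and Sgsh (chr11:119355514-119355559, minus strand) have 1 each.
Lamp1: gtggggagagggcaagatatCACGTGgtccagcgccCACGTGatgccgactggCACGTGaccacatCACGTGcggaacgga
Gla: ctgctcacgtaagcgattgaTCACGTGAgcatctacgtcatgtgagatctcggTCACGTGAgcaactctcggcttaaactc
Mcoln1: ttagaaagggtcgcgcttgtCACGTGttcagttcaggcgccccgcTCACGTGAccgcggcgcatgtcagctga
Cln3: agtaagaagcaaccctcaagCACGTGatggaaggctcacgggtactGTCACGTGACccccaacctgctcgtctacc
Naglu: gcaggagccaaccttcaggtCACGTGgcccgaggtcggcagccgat
Sgsh: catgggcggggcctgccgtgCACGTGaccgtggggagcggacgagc
Lamp1 was 1.09-fold lower, Gla 1.6-fold, Mcoln1 1.18-fold, Naglu 1.62-fold and Sgsh 1.64-fold, and Cln3 did not pass the test.

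The MiT/TFE factors themselves moved in different directions. Tfeb, the factor best known for lysosome biogenesis, was at 10.02, 9.45 and 10.4 CPM in the thrombocytopenic libraries and at 12.02, 13.7 and 12.9 CPM in the controls (log2 fold change -0.37, SE 0.08; adjusted p = 4.26e-05). The groups did not overlap, and the gene was the least abundant of the 3. Tfe3, its close relative, was at 238, 231 and 221 CPM against 205, 212 and 205 CPM (0.15, SE 0.03; adjusted p = 3.92e-05), again with no overlap but in the opposite direction. Mitf, the family member named for microphthalmia, was at 225, 210 and 222 CPM against 221, 220 and 218 CPM. Its groups overlapped, and the log2 fold change of 0.00 (SE 0.03) did not pass. Per kilobase of GENCODE M21 exon sequence, control levels were 2.27 CPM for Tfeb, 22.4 for Tfe3 and 35.4 for Mitf.

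Among the 10 genes of sphingolipid and glycolipid breakdown 7 were lower and Asah1 was higher, with Arsa and Smpd1 not past the threshold. Psap, the precursor of the saposins that present lipids to the hydrolases, was at 3896, 3936 and 3831 CPM in the thrombocytopenic and 5608, 5816 and 5695 CPM in the control libraries. It was 1.47-fold lower (log2 fold change -0.55, SE 0.02; adjusted p = 2.51e-28), and the lowest control lay 1672 CPM above the highest thrombocytopenic library, while each group spanned 208 CPM or less. Per kilobase it was the most abundant of the 43 genes in both groups, at 1417 against 2080 CPM. Gla, alpha-galactosidase A, which removes terminal galactose from globotriaosylceramide, was at 56.1, 56.6 and 60.0 CPM against 92.5, 91.3 and 92.1 CPM (-0.68, SE 0.04; adjusted p = 1.34e-22). Its control libraries spanned 1.14 CPM and lay far above every thrombocytopenic one.

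The other lower genes of this role had small changes. Galc, which cleaves galactosylceramide, had a log2 fold change of -0.18 (SE 0.05). Hexa, the alpha subunit of beta-hexosaminidase, had -0.17 (SE 0.03), Neu1, a sialidase, -0.15 (SE 0.04), and Gm2a, the activator protein that hands GM2 ganglioside to hexosaminidase, -0.10 (SE 0.03). For each of these 4 genes every thrombocytopenic library lay below every control. Glb1, beta-galactosidase, had -0.11 (adjusted p = 0.0224) and lost its call with DESeq2 (adjusted p = 0.0645) and when any of 3 libraries was left out: thrombocytopenic replicate 2 (0.155), control replicate 1 (0.0644) or control replicate 2 (0.0554). In the opposite direction, Asah1, the acid ceramidase, was at 315, 310 and 309 CPM against 283, 275 and 277 CPM (0.16, SE 0.03; adjusted p = 8.57e-07). All 3 thrombocytopenic libraries exceeded all 3 controls. Arsa, the sulfatase acting on sulfatide, had a log2 fold change of -0.06 (SE 0.06), and Smpd1, acid sphingomyelinase, 0.02 (SE 0.06); both pairs of groups overlapped.

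**Figure D4:**
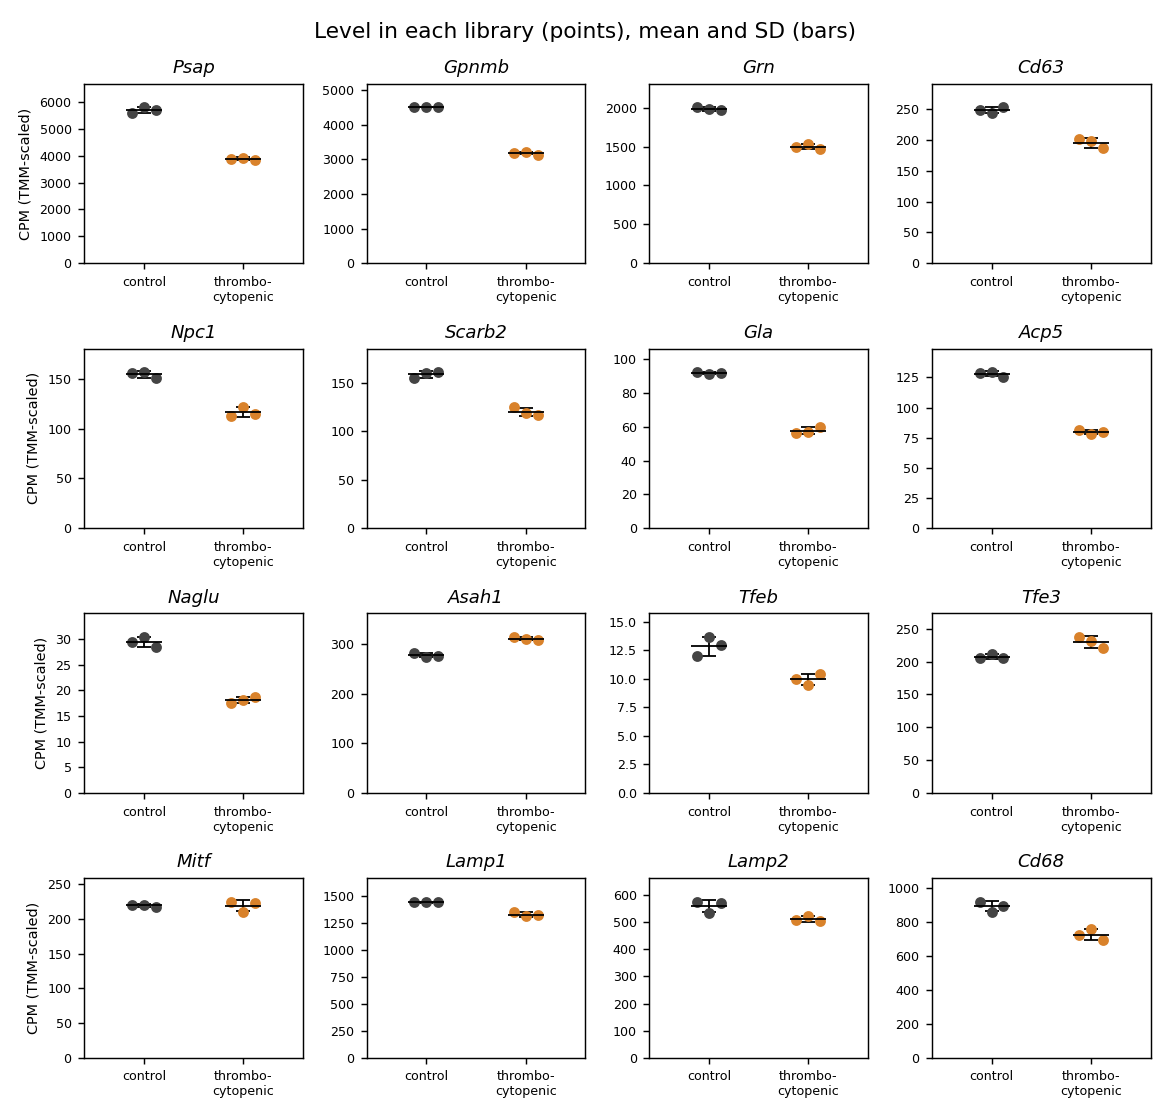
Level of 16 lysosomal genes in each library (points, TMM-scaled CPM, axes from 0), with the mean and SD of each group of 3 (bars). Psap, Gpnmb, Gla, Acp5 and Naglu show the widest separation, Asah1 and Tfe3 are higher in the thrombocytopenic libraries, and the groups of Mitf overlap.

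All 7 genes of glycosaminoglycan breakdown passed the test, 6 lower and Ids higher, with a median log2 fold change of -0.45. Naglu, which removes N-acetylglucosamine from heparan sulfate, was at 17.5, 18.2 and 18.7 CPM against 29.4, 30.4 and 28.4 CPM (-0.70, SE 0.06; adjusted p = 5.82e-16). Sgsh, the sulfamidase of the same chain, was at 2.28, 2.78 and 2.77 CPM against 3.78, 4.56 and 4.39 CPM (-0.72, SE 0.14; adjusted p = 2.21e-05). It was the least abundant of the 43 genes by CPM and had the largest SE, and 21.6% of its exon bases in GENCODE M21 overlap Card14 on the opposite strand; use of strand in counting is not given in the sources used here. Naglu and Sgsh both had groups without overlap.

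Galns, a sulfatase of keratan and chondroitin sulfate, was at 55.3, 55.7 and 54.5 CPM against 74.5, 76.9 and 74.1 CPM (-0.45, SE 0.04; adjusted p = 3.28e-15). Arsb, the sulfatase of dermatan and chondroitin sulfate, was at 10.6, 10.3 and 10.8 CPM against 13.1, 15.1 and 14.7 CPM (-0.45, SE 0.07; adjusted p = 9.27e-07), with 32.3% of its exon bases overlapping the noncoding gene Gm26527 on the opposite strand. Galns and Arsb were thus lower in each thrombocytopenic library than in any control. Idua, alpha-L-iduronidase, had a log2 fold change of -0.27 (SE 0.05) and Gusb, beta-glucuronidase, -0.18 (SE 0.03). Ids, the iduronate sulfatase, was at 90.8, 90.7 and 86.2 CPM against 81.8, 78.6 and 80.01 CPM (0.16, SE 0.04; adjusted p = 0.000179), so that every thrombocytopenic library exceeded every control.

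Of the 4 genes of glycoprotein and glycogen breakdown, 2 were lower. Gaa, the acid glucosidase that digests glycogen, was at 58.9, 62.3 and 59.3 CPM against 75.6, 80.6 and 78.4 CPM (log2 fold change -0.38, SE 0.04). Manba, beta-mannosidase, had -0.19 (SE 0.05). Fuca1, the fucosidase, had -0.09 (adjusted p = 0.0629) with groups that did not overlap, and passed with upper quartile factors (0.0157), with library totals only (0.0458), with a minimum mean of 1 CPM (0.0406) and without thrombocytopenic replicate 1 (0.0294). Man2b1, the lysosomal alpha-mannosidase, was at 230, 240 and 230 CPM against 235, 232 and 234 CPM, with overlapping groups and a log2 fold change of 0.00 (SE 0.03).

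Lipid and sterol handling split. Npc1, the membrane protein that moves cholesterol out of the lysosome, was at 113, 122 and 115 CPM against 156, 157 and 151 CPM (log2 fold change -0.41, SE 0.03; adjusted p = 3.26e-16). Npc2, the soluble carrier that passes cholesterol to it, was at 924, 897 and 895 CPM against 1060, 1080 and 1076 CPM (-0.24, SE 0.02; adjusted p = 1.05e-12). Both genes of this relay were therefore lower in all 3 thrombocytopenic libraries than in any control. Lipa, the acid lipase that releases cholesterol from its esters, went the other way by a narrow margin, at 702, 704 and 691 CPM against 679, 653 and 668 CPM (0.07, SE 0.03; adjusted p = 0.0202). Its call was lost with upper quartile factors (adjusted p = 0.138), without thrombocytopenic replicate 1 (0.0538) or 2 (0.0507), and without control replicate 2 (0.13) or control replicate 3 (0.0671). Pla2g15, a lysosomal phospholipase, had a log2 fold change of -0.10 (SE 0.07) and did not pass, although its groups did not overlap.

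Grn led the proteases and related proteins, of which 3 of 4 were lower. Grn encodes progranulin, a secreted and lysosomal protein cut into granulins, and was at 1496, 1539 and 1466 CPM against 2008, 1979 and 1965 CPM (log2 fold change -0.40, SE 0.02; adjusted p = 3.2e-21). The lowest control library was 1.28-fold above the highest thrombocytopenic one. Tpp1, a tripeptidyl peptidase, had -0.27 (SE 0.03) and Lgmn, the endopeptidase legumain, -0.13 (SE 0.03). Ppt1, which strips palmitate from proteins, had -0.04 (SE 0.04) with overlapping groups. Both acid phosphatases were lower but by different amounts. Acp5, the tartrate-resistant phosphatase of osteoclasts and macrophages, was at 81.7, 77.7 and 79.6 CPM against 129, 130 and 126 CPM (-0.68, SE 0.03; adjusted p = 8.19e-25), and its groups lay far apart. Acp2 had -0.09 (SE 0.03).

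Of 9 membrane proteins 7 were lower, none was higher, and Laptm5 and Cln3 did not pass. Gpnmb, a transmembrane glycoprotein of macrophages, was at 3177, 3207 and 3143 CPM against 4516, 4511 and 4510 CPM (log2 fold change -0.51, SE 0.02; adjusted p = 6.86e-27). The 3 controls were almost identical and stood above every thrombocytopenic library. Scarb2, known as LIMP-2, the receptor that carries glucocerebrosidase to the lysosome, was at 124, 118 and 116 CPM against 155, 160 and 161 CPM (-0.41, SE 0.03; adjusted p = 2.22e-16). Cd63, a tetraspanin of late endosomes and lysosomes, was at 202, 198 and 187 CPM against 249, 244 and 254 CPM (-0.35, SE 0.03). Cd68, the macrophage glycoprotein macrosialin, was at 723, 759 and 691 CPM against 918, 859 and 894 CPM (-0.30, SE 0.03). For each of these the groups did not overlap.

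The structural glycoproteins of the lysosomal membrane had smaller fold changes. Lamp1 was at 1350, 1307 and 1316 CPM against 1436, 1443 and 1437 CPM (log2 fold change -0.12, SE 0.02; adjusted p = 2.34e-05). Lamp2 was at 508, 524 and 504 CPM against 576, 534 and 569 CPM (-0.13, SE 0.03; adjusted p = 7.52e-05). Their groups did not overlap, but for Lamp2 the highest thrombocytopenic library lay only 10.2 CPM under the lowest control. Mcoln1, the calcium channel TRPML1, had -0.24 (SE 0.05). Cln3 was at 131, 137 and 130 CPM against 135, 133 and 133 CPM, and Laptm5, a membrane protein of blood cells, at 627, 652 and 618 CPM against 640, 614 and 615 CPM. Both pairs of groups overlapped. Compared per kilobase in the controls, the order began with Psap (2080 CPM), Cd68 (708), Gpnmb (693), Grn (571), Lamp1 (538) and Lgmn (503), followed after a gap by Hexa (198) and Npc2 (197). Cd68 and Gpnmb (SD 23.6 and 0.509) and Hexa and Npc2 (SD 2.58 and 1.90) did not differ beyond their spread in this order, and the M21 exon lengths may differ from those the authors counted over.

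In 4 lists of other lysosomal genes lower calls outnumbered higher ones, beside 22.7% lower and 22.4% higher over all genes. Of 18 tested subunits of the vacuolar proton pump, 11 were lower and 1, Atp6v1b2, was higher (704 ± 15.3 CPM against 563 ± 8.02 CPM, mean ± SD, n = 3 each). The lower ones with the smallest p were Tcirg1 (728 ± 17.3 against 927 ± 25.2 CPM), Atp6v1d (log2 fold change -0.38) and Atp6v0c (-0.15). Of 22 other lysosomal enzymes 11 were lower and 3 higher. Smpdl3a, a sphingomyelinase-like enzyme, had a log2 fold change of -0.50, and Naaa, an acid amidase of the ceramidase family, was higher by 0.71. Of 23 other membrane proteins 14 were lower and 2 higher. The largest changes were in the transporters Slc36a1 (17.7 ± 0.991 against 35.8 ± 2.48 CPM, log2 fold change -1.01) and Slc29a3 (46.7 ± 2.31 against 86.0 ± 2.23 CPM, -0.88), followed in order of p by Cd164 (-0.46) and the chloride transporter Clcn7 (-0.36). Cathepsins were lower in 7 of 12 and higher in 2, with Ctsk at 7.54 ± 1.12 against 24.2 ± 1.02 CPM (-1.67), Ctsh at -0.38, Ctsa at -0.24 and Ctsc at 0.26.

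**Figure D5:**
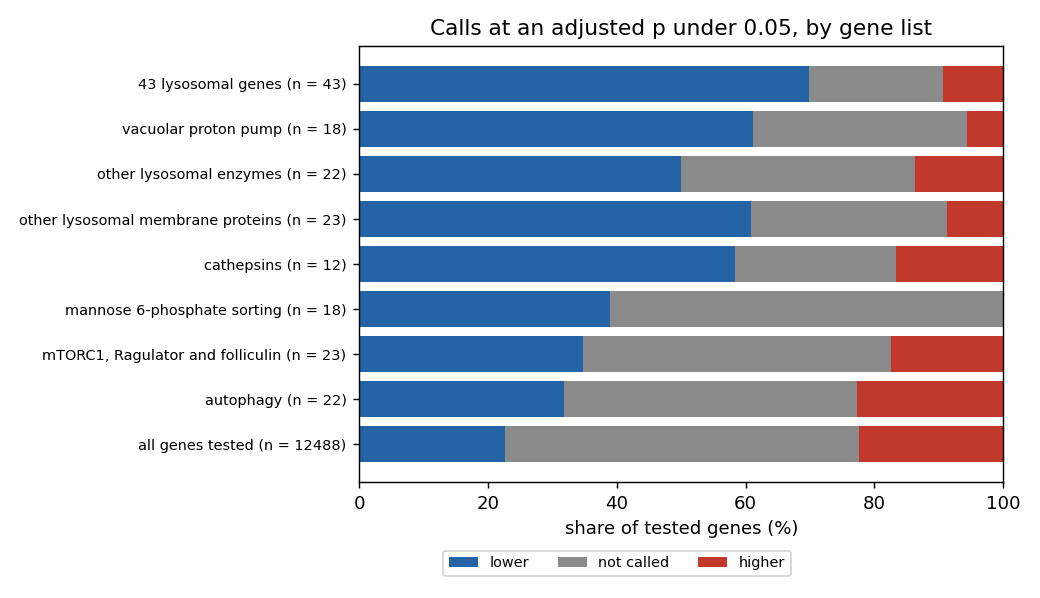
Share of tested genes (horizontal axis, percent) called lower, not called or higher at an adjusted p under 0.05 for the 43 lysosomal genes, 7 related gene lists and all genes tested. The lower share runs from 69.8% for the 43 genes to 31.8% for autophagy genes, against 22.7% of all genes.

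The test was passed by 38.9% of the sorting list, 52.2% of the mTORC1, Ragulator and folliculin list and 54.5% of the autophagy list, against 45.1% of all genes (22.7% lower, 22.4% higher). Lower calls outnumbered higher ones in these lists too, for autophagy by 7 to 5 only. The median log2 fold changes of the 3 lists were -0.014, -0.05 and 0.003 in that order, against -0.001 over all genes. Of 18 mannose 6-phosphate sorting genes 7 were lower, none higher and 11 not past the threshold. The cation-dependent receptor gene M6pr had a log2 fold change of -0.15, the second receptor gene Igf2r -0.33, the adaptor gene Gga2 -0.30 and Gnptg, a subunit of the enzyme that makes the tag, -0.23. Of 23 tested genes listed under mTORC1, Ragulator and folliculin, which govern where MiT/TFE proteins reside, 8 were lower and 4 higher. That list also held Tfec, itself a MiT/TFE gene, and the phosphatase genes Ppp3ca, Ppp3cb and Ppp3r1. Tfec and Ppp3r1 were among the higher genes and Ppp3ca among the lower. Fnip2, a partner of folliculin, was at 92.9, 95.7 and 101 CPM against 189, 205 and 197 CPM (-1.03, SE 0.03; adjusted p = 3.38e-31), and Flcn, folliculin itself, at 19.8, 21.0 and 18.8 CPM against 30.5, 29.9 and 26.5 CPM (-0.55, SE 0.06). Rragc, a Rag GTPase gene, had -0.27. Among the 4 higher genes Tfec, the remaining MiT/TFE family member, was at 137, 130 and 134 CPM against 75.8, 74.3 and 76.9 CPM (0.82, SE 0.03, adjusted p = 4.75e-28). Every thrombocytopenic library lay far above every control for Tfec. Of 22 autophagy genes 7 were lower and 5 higher: the receptor gene Sqstm1 had -0.17, Vps18 -0.28 and Uvrag -0.31, whereas Atg9a had 0.30.

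Markers of other cell types moved between the groups in the same libraries. Of 14 tested macrophage markers 11 were lower and 3 higher, among them Mertk (log2 fold change -1.51) lower and Adgre1 (0.28) and Mrc1 (0.77) higher; Vsig4 had no count. Of 16 monocyte markers 10 were higher and 5 lower, with a summed level of 18680 to 19160 CPM against 17440 to 17910 CPM. Most of that sum was Lyz2 (13490 to 13810 CPM against 11790 to 12290 CPM), so it says little of the other markers. Fn1, 1 of the 5 lower markers, was at 842 to 953 CPM against 1510 to 1586 CPM. Dendritic cell markers, of which 6 of 8 tested were lower, summed to 233 to 240 CPM against 315 to 330 CPM, of which Bst2 alone gave 209 to 215 CPM and 269 to 290 CPM. Flt3, Zbtb46, Xcr1 and Siglech were each under 2 CPM in every library. Neutrophil markers, with 3 of 8 higher and 1 lower, summed to 515 to 523 CPM against 385 to 404 CPM. Most of that sum was Mmp8 (317 to 325 CPM against 219 to 233 CPM) and Csf3r (155 to 163 CPM against 140 to 142 CPM), and Ly6g had 0 counts in the thrombocytopenic and 1 in the control group. Of 14 platelet and megakaryocyte markers 7 were tested, of which 5 were lower and 2, Pf4 and Ppbp, higher, with a median log2 fold change of -1.27. Ppbp was at 148 to 152 CPM against 93.4 to 97.0 CPM, Clec1b at 0.669 to 0.756 CPM against 3.39 to 3.67 CPM, and Nrgn had 2 counts in all against 332. Their summed level was 1221 to 1287 CPM against 1014 to 1060 CPM, most of it Pf4. Basophil and mast cell markers, lower in 6 of 6, summed to 1.32 to 2.24 CPM against 10.1 to 11.2 CPM. Erythroid markers summed to 0 to 0.056 CPM against 1.89 to 2.42 CPM; the 1 tested, Hba-a1, was lower with 0 counts against 180, and Alas2 and Slc4a1 had none. Markers of T and NK cells summed to 0.293 to 0.502 CPM against 0.765 to 1.17 CPM; the 1 tested, Cd8a, was lower (log2 fold change -1.54), and Cd3d, Cd3e and Cd3g had no count. B cell markers summed to 13.4 to 15.1 CPM against 11.0 to 13 CPM, with 1 of 2 tested higher and Cr2 at 0. The part of these markers, and of the cells they mark, in the lower lysosomal RNA was not tested.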

How the data were processed

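The submitters' processing notes name Salmon 1.5.2, STAR 2.7.9a, fastp 0.23.1, and featureCounts of Subread 2.0.1; their order, genome build, annotation and strand setting: not given in the sources used here. Per the labels' protocols, libraries were made from poly(A) RNA with a stranded kit that marks the second strand. The values the authors deposited are raw counts per gene symbol, 1 file per library. All 6 libraries entered 1 fit in R 4.3.3 with edgeR 4.0.16: filterByExpr (minimum count 10, minimum total 15), TMM factors, robust quasi-likelihood test with group as the only term, two-sided, Benjamini-Hochberg adjustment over 12488 genes, threshold 0.05. SE is the absolute log2 fold change over the square root of F. CPM of single genes are TMM-scaled; list sums are CPM on library totals. No 2 libraries of 1 group agreed within sampling noise (chi-square 1.89 to 3.24 per degree of freedom). The fitted spread beyond that noise was small, with a common coefficient of variation of 2.68% in edgeR. Whether this spread is technical or between animals is not stated in the labels. The members, lists and naming rule were chosen with earlier results of these data known. Values per library are given for called members with an absolute log2 fold change of at least 0.4, the MiT/TFE factors, 5 fixed members and a few more (Asah1, Ids, Gaa, Man2b1, Npc2, Lipa, Cln3, Laptm5) chosen after their values were seen; up to 4 genes with the smallest p are named per related list; macrophage markers were named after their values were seen, and some genes that meet the rule are not reported here. Exon lengths and overlaps come from GENCODE M21, promoters from RefSeq GRCm38.p6, both matched by symbol. In simulated data for this comparison (12350 genes tested) 200 genes were changed, with 46 to 50 tested per fold size. The fit recovered 64% of genes changed 1.2-fold, 85.4% at 1.5-fold, 90% of those doubled and 100% at 4-fold, with 14 false calls. In the data 45.1% of genes were called, and recovery with so large a share changed was not tested. The alternatives tried were DESeq2 1.42.0, limma-voom (limma 3.58.1), scaling by RLE, by upper quartile or by library totals, a fit that was not robust, other filters, a replicate block and each library left out.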

Additional observations from a re-analysis of the deposited data

How the results depend on the processing

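Over 15 alternatives the number of lower lysosomal genes ranged from 29 to 31 and of higher ones from 3 to 4; 29 were called lower and 3 higher in every alternative and the main setting. With 1 library left out the counts were 29 to 31 lower and 3 to 4 higher, the median log2 fold change was -0.18 to -0.15, and over all genes 2420 to 2741 were higher and 2564 to 2686 lower. The other alternatives gave 2362 to 2829 higher and 2347 to 3164 lower over all genes. With upper quartile scaling 2362 were higher and 3164 lower (57.3% of calls lower, against 50.4% in the main setting), beside 3 and 31 of the lysosomal genes. Of 645 values of single genes, 9 lost the call (Glb1 and Lipa), 4 gained it (Fuca1) and 9 changed sign, all of genes that did not pass the test: Man2b1 with RLE scaling and DESeq2 (0.001 each), Smpd1 (-0.002) and Laptm5 (-0.003) with upper quartile scaling, and, with 1 library left out, Man2b1 (-0.02 to 0.01), Smpd1 (-0.014 to 0.049) and Mitf (-0.022 to 0.028). The cause was not tested. Upper quartile scaling moved the median of all genes to -0.03. Replicate numbers are shared by the groups, but libraries of the same number did not deviate together (correlations -0.038, -0.089 and -0.013; 0 of 6 libraries correlated best with their own number). With the replicate block 30 lysosomal genes were lower and 4 higher. Every lysosomal gene had 83 counts or more per library, and the largest SEs were those of Sgsh, Tfeb and Arsb, the 3 genes with the lowest CPM.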
